A study of Mus musculus with 4 samples.

Results

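Myeloid and dendritic cell genes were examined in the open chromatin of mouse DN3 thymocytes, cells committed to the T lineage in which such genes are not part of the usual programme. The genes were a given list of 10 out of 21883 protein-coding genes in the annotation used, namely Csf1r, Itgam, Itgax, Siglech, Cebpa, Cebpb, Irf8, Zbtb46, Lyz2 and Mpo. Every ATAC-seq peak that overlapped one of them, or the 20 kb on either side of it, was counted. ATAC-seq marks open DNA by where a transposase can insert sequencing adapters. The DN3 cells came from the thymus of WT mice. They were flow sorted and then separated on magnetic beads into EpCAM-positive DN3 cells (2 libraries), which bind an antibody to the adhesion molecule EpCAM, and EpCAM-negative DN3 cells (2 libraries), the unlabelled remainder. The labels name no age or strain of the mice and do not say whether the libraries came from separate animals, so differences among libraries of a fraction may be technical.

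The members fall into 3 roles. Csf1r encodes the receptor for macrophage colony-stimulating factor, Itgam and Itgax encode the integrin chains CD11b and CD11c of myeloid and dendritic cells, and Siglech encodes a lectin of plasmacytoid dendritic cells. Cebpa and Cebpb encode C/EBP transcription factors of granulocyte and macrophage differentiation, Irf8 encodes a factor of monocyte and dendritic cell development, and Zbtb46 encodes a factor of classical dendritic cells. Lyz2 encodes the lysozyme of macrophages and neutrophils, and Mpo encodes myeloperoxidase of neutrophil granules. Thymic precursors have myeloid potential before T lineage commitment, and DN3 cells have normally lost it, with the PU.1 and C/EBP factors promoting and Notch signalling opposing the myeloid fate. A peak shows that DNA was accessible in some of the cells, not that the gene was transcribed, and in a sorted population more open cells and more open DNA per cell cannot be told apart.

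The starts of the members differed in sequence as well as in accessibility, so the 250 bases before the start are shown for 3 genes with a peak there and 3 without. Sequences are from RefSeq (GRCm38.p6, the same assembly as the mm10 build of the peaks), read 5′ to 3′ in the direction of transcription, and capitals mark CpG dinucleotides. The starts of Cebpa, Irf8 and Cebpb lay in regions called in 4, 3 and 3 of the 4 libraries.
Cebpa chr7:35119043-35119292 (+ strand): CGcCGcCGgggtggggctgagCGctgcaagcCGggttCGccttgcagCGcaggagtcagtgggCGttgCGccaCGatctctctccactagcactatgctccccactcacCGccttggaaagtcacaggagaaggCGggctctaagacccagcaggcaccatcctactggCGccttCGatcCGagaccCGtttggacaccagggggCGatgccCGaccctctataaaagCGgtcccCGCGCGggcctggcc
Irf8 chr8:120736108-120736357 (+ strand): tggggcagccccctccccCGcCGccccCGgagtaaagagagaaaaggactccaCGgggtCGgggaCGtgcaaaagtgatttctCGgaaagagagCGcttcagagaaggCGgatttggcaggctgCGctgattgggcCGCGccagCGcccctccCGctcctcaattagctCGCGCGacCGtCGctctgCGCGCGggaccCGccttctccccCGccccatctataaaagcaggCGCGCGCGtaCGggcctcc
Cebpb chr2:167688665-167688914 (+ strand): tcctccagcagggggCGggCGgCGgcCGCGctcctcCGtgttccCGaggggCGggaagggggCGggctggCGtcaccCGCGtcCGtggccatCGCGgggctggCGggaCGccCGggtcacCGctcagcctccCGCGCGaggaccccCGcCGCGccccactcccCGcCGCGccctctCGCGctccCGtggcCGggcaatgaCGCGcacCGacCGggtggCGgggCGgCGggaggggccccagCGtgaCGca
The starts of Itgam, Mpo and Lyz2 had no peak in any library.
Itgam chr7:128062390-128062639 (+ strand): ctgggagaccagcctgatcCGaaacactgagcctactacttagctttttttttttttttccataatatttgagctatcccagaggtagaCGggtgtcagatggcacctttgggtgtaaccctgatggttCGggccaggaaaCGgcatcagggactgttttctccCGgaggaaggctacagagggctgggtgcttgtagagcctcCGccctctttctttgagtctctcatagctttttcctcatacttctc
Mpo chr11:87793534-87793783 (+ strand): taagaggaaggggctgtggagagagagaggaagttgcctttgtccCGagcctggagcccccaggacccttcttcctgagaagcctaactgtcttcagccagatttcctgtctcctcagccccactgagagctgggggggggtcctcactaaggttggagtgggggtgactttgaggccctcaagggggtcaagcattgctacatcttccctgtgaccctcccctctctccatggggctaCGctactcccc
Lyz2 chr10:117282273-117282522 (- strand): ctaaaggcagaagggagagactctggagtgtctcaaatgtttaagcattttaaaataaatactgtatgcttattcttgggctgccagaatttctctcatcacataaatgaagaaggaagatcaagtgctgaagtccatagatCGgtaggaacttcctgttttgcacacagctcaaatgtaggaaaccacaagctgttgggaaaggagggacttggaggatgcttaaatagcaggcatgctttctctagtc

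These open starts were rich in CpG and the closed ones were poor in it. Closed here means without a listed peak, and weaker accessibility at such starts was not detectable. The 3 open starts had 22 (Cebpa), 29 (Irf8) and 41 (Cebpb) CpG in 250 bases and a GC content of 66.4% to 81.6%. The other 7 listed starts of members, among them a second, downstream start of Irf8, had 0 to 8 CpG and a GC content of 41.6% to 59.2%, and none had a peak. Over all 21262 listed protein-coding starts the median was 10 CpG. Of starts with 0 to 4 CpG, 3.85% were called in all 4 libraries, against 74.3% of starts with 20 to 29 CpG. Siglech, Zbtb46, Lyz2 and Mpo are in the lowest of these classes, with 2, 0, 1 and 2 CpG. The listed start of Zbtb46, on the minus strand, lies within the gene, far from the upper end of its span at 181493262. Its values describe that site only. No start of Csf1r is in the sequence table used here.

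**Figure D1:**
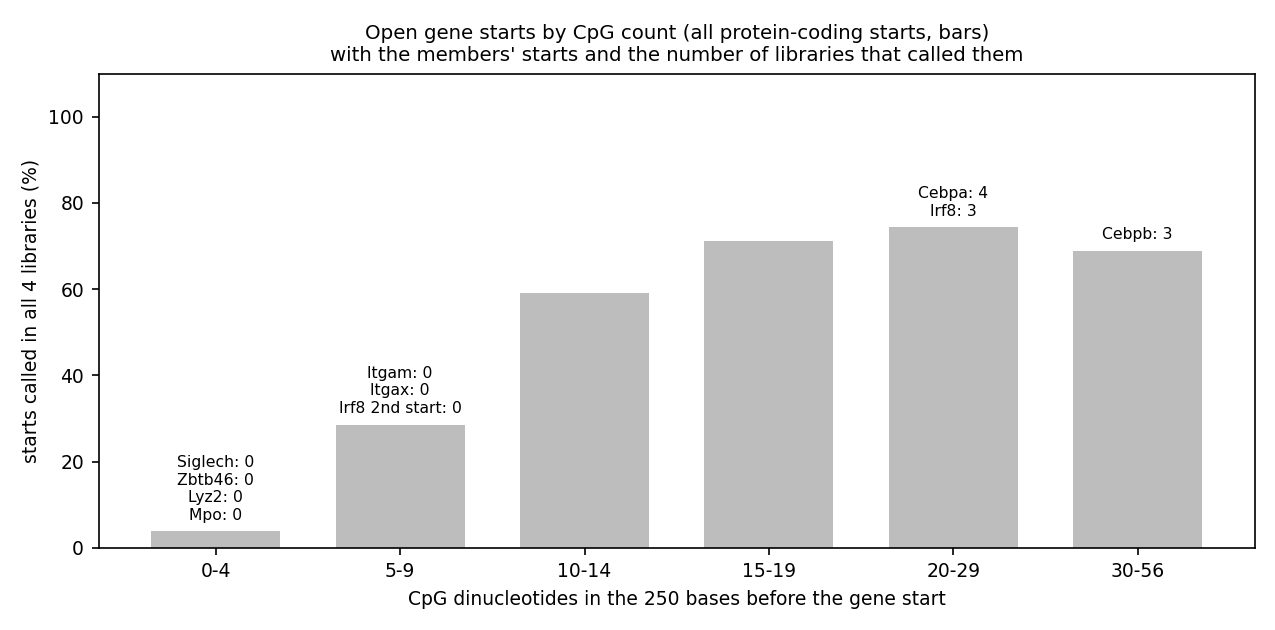
Percentage of all listed protein-coding gene starts called open in all 4 libraries (bars), by the number of CpG dinucleotides in the 250 bases before the start. Each member's start is written above its class with the number of libraries that called it; members with 0 to 8 CpG had 0 libraries, and those with 22 to 41 CpG had 3 or 4.

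Short motifs, 6 in all, were searched on both strands of the same 250 bases. The 3 open starts held none of them, and 6 of the 7 closed starts held at least 1. The share of all starts with at least 1 of the 6 is not given here, so this count has no background beside it. The open and closed starts also differed in GC content (66.4% to 81.6% against 41.6% to 59.2%), and the part of that difference in the motif counts was not tested. The PU.1 core GAGGAA, bound by the myeloid factor PU.1, was found at Itgam (84 to 79 and 15 to 10 bases before the start) and at Mpo (247 to 242 and 224 to 219 bases before it), and at 22.2% of all listed starts. The RUNX motif TGTGGT lay at Siglech and Lyz2 and at 12.4% of all starts, and the ETS motif CAGGAAG at Lyz2 and Mpo and at 10.2%. The AP-1 motif TGANTCA lay at Itgax, at the listed start of Zbtb46 and at 6.13% of all starts. The string TTGCNNCAA, searched for C/EBP, and the ETS-IRF composite motif were at no member's start, and at 1.51% and 2.16% of all starts. That string fixes 1 spacing of its letters, and no other form of the C/EBP site was searched. Its absence therefore does not show that C/EBP sites were absent, and its share of all starts is no background for such sites. No 2 of the motif matches at members' starts overlapped.

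Peaks of the 4 lists were merged into regions wherever they overlapped. The lists held 26029 and 29030 peaks for EpCAM-positive cells, and 24598 and 25924 for EpCAM-negative cells. Read totals were not used here, so depth is known only relatively. The lowest local background was 0.388 and 0.383 fragments for EpCAM-positive, against 0.290 and 0.286 for EpCAM-negative libraries, and the weakest peaks listed had a −log10 q of 2.07 and 2.02 for EpCAM-positive, against 1.32 and 1.34 for EpCAM-negative libraries. The EpCAM-negative lists thus reach down to less certain peaks, and the part of this gap in single-fraction calls was not tested. Values below are summit fragments, the pileup at a peak's summit solved from the authors' fold and −log10 p. Where fractions are compared, the pileup was divided by a factor per library (1.10 and 1.13 for EpCAM-positive, 0.912 and 0.895 for EpCAM-negative) that equalises regions called in all 4 libraries. With 2 libraries against 2, an exact two-sided permutation test cannot give a p below 0.33, so no test was run and a difference is described by whether the fractions overlap.

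Markers of the DN3 stage set the scale for an open start. Of 10 such markers, 6 had a region called in all 4 libraries at their start (Il2ra, Cd3e, Bcl11b, Notch1, Lck and Gata3), Ptcra and Rag2 were called there in 2 libraries and 1 library, and Rag1 and Tcf7 in none. Of the 10 myeloid and dendritic genes, 1 (Cebpa) had a region called in all 4 libraries at the start, 2 (Cebpb and Irf8) one called in 3 libraries, and 7 none in any library. The share over all protein-coding genes with all 4 libraries was 42.1%. None of 6 B cell markers and 1 of 6 thymic epithelial markers (Aire) had such a region. A start means the listed promoter window, from 250 bases before to 50 after, or, for genes without one such as Csf1r, 1000 bp around either gene end. The member count became 2 without EpCAM-positive replicate 2, where Cebpb joins, and 2 without EpCAM-negative replicate 1, where Irf8 joins.

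**Figure D2:**
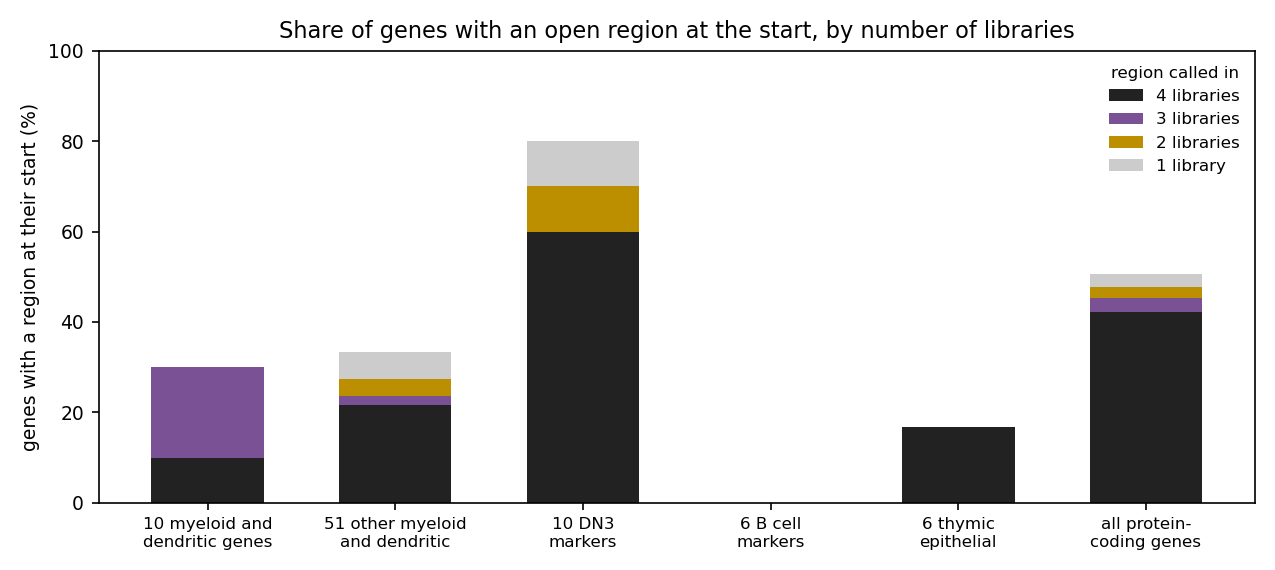
Percentage of genes (y axis) with a region at the gene start, for each gene list, stacked by the number of libraries that called the region. The myeloid and dendritic genes have 10% at 4 libraries and 20% at 3, against 60% at 4 libraries for the DN3 markers and 42.1% for all protein-coding genes.

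Within their windows the 10 genes had 27 regions, after counting once a region that lies in the windows of both Itgam and Itgax. Of these, 10 (37.0%) were called in all 4 libraries, against 48.9% of the 30548 regions in the windows of all protein-coding genes. Their median summit was 26 fragments, against 29.5 in those windows. The density was 4.17 regions per 100 kb of window, of which 1.55 were called in all 4 libraries, against 2.13 and 1.04 over all protein-coding windows. A further 6 were called in 3 libraries, 3 in 1 library of each fraction and 7 (25.9%) in a single library, where the background is 28.0%. None was called in both EpCAM-positive libraries alone, where the background is 4.47%, and 1 (3.70%) was called in both EpCAM-negative libraries alone, where it is 1.53%. At least 1 region called in all 4 libraries was present for 7 of the 10 genes (62.9% of all protein-coding genes), and the exceptions were Itgax, Lyz2 and Mpo. Inside the gene itself, 5 of 10 genes (Csf1r, Itgax, Siglech, Lyz2 and Mpo) had no peak of any library, as had 38.3% of all protein-coding genes. Such a region lay inside the gene for 4 of the 10 genes (Cebpa, Cebpb, Irf8 and Zbtb46), as for 49.1% of all protein-coding genes. Among the 10 regions called in all 4 libraries, 4 lay inside the member gene, 1 lay over its start (Cebpa) and 3 lay over the start of another gene.

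**Figure D3:**
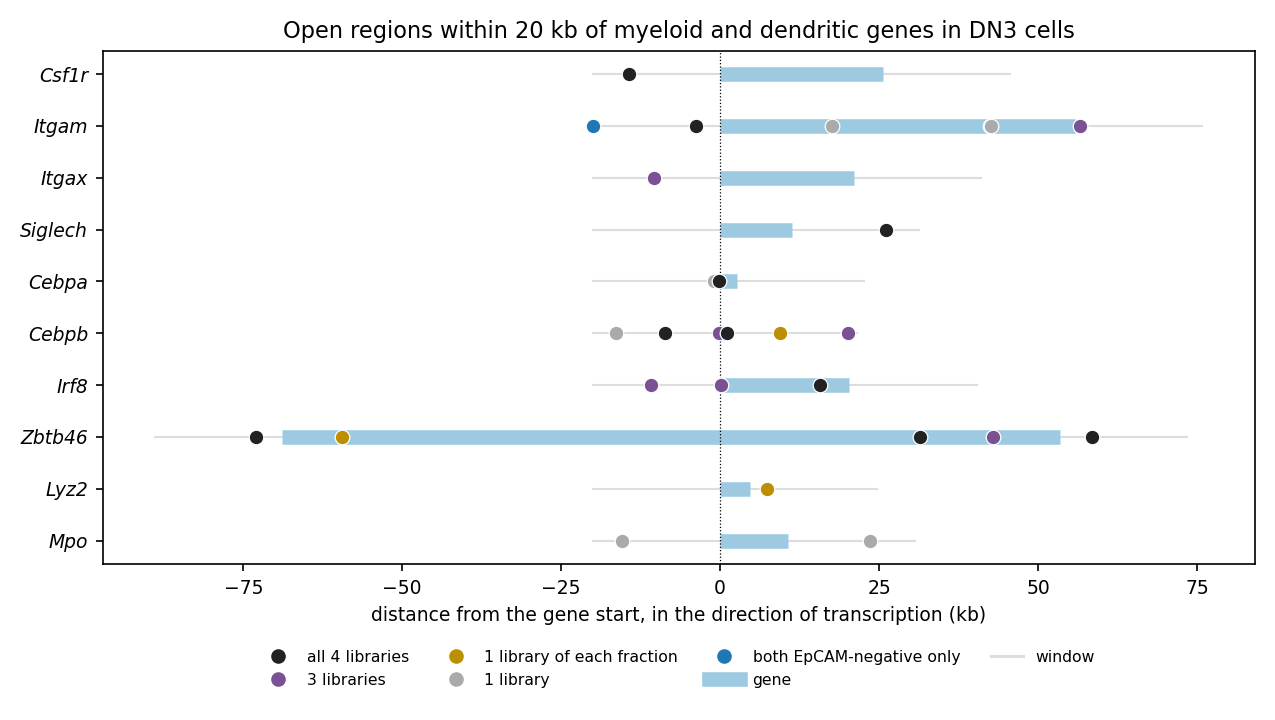
Position of each region's summit (dots) relative to the gene start, in kb along the direction of transcription, for the 10 genes; bars are gene bodies, thin lines the windows (the listed start of Zbtb46 lies within its span), and dot colours the libraries that called the region. For Csf1r, whose strand is not in the tables used, the lower-coordinate end is taken as the start. Cebpa, Cebpb and Irf8 have dots at 0, and the other 7 genes have none there.

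Among the surface receptors, Csf1r (chromosome 18, 61105572 to 61131139) had a single region in its window, outside the gene. It lay at 61090892 to 61091415, 14157 bp from the nearer gene end, with 12 and 16 summit fragments in EpCAM-positive libraries, against 9 and 11 in EpCAM-negative ones. All 4 values are low, since 8.10% of regions called in all 4 libraries had a lower median. After scaling they were 10.9 and 14.1 (EpCAM-positive) against 9.87 and 12.3 (EpCAM-negative), so the fractions overlapped.

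Itgam (chromosome 7, 128062640 to 128118491) had the strongest region of the receptor genes, 3598 bp upstream of its start. That region, at 128058531 to 128059042, had 46 and 36 summit fragments in EpCAM-positive libraries, against 24 and 34 in EpCAM-negative libraries. Scaled values were 41.9 and 31.8 (EpCAM-positive) against 26.3 and 38.0 (EpCAM-negative), so the lowest and the second highest value came from EpCAM-negative libraries and the fractions overlapped. No peak lay between this region and the start of Itgam.

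Inside Itgam the peaks were weak and each was called in 1 library. EpCAM-negative replicate 1 had a peak at 128080092 to 128080325 with 8 summit fragments. EpCAM-positive replicate 1 had one at 128104935 to 128105174 with 6, and EpCAM-positive replicate 2 had one at 128105207 to 128105481 with 10, and the pair lay 32 bases apart. When peaks up to 100 bp apart are merged, they form an EpCAM-positive-only region.

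The EpCAM-negative-only region belonged to the Itgam window. It spanned 128042434 to 128042698 at 19942 bp from the gene, at the edge of the 20 kb window, with 7 and 8 summit fragments in EpCAM-negative libraries. The nearest EpCAM-positive peak was 15836 bases away. The count becomes 0 with a window of 10 kb or a −log10 q of at least 5. A region between Itgam and Itgax (128118964 to 128119561) was not called in EpCAM-positive replicate 1, had 18 summit fragments in EpCAM-positive replicate 2, and had 8 and 18 in EpCAM-negative libraries. It lay 473 bp beyond the end of Itgam, and it was the single region in the window of Itgax (chromosome 7, 128129526 to 128150657), 9965 bp upstream of that gene.

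Siglech (chromosome 7, 55768154 to 55779448) had 1 region, which lay over the start of the neighbouring gene Tubgcp5, a component of the gamma-tubulin complex. This region, at 55794025 to 55794784, had 29 and 28 summit fragments in EpCAM-positive libraries, against 28 and 23 in EpCAM-negative libraries. Scaled values were 26.4 and 24.8 (EpCAM-positive) against 30.7 and 25.7 (EpCAM-negative), with overlap between the fractions. Siglech itself, 14577 bp away, had no peak.

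The transcription factor genes held 16 of the 27 regions. Cebpa (chromosome 7, 35119293 to 35121928), which encodes C/EBPα, had a region over its start at 35118631 to 35119588. It had 28 and 35 summit fragments in EpCAM-positive libraries, against 12 and 20 in EpCAM-negative libraries. Scaled values were 25.5 and 30.9 (EpCAM-positive) against 13.2 and 22.3 (EpCAM-negative), so both EpCAM-positive libraries lay above both EpCAM-negative ones. The ratio of the scaled sums was 1.60 (95% interval 1.03 to 2.53, counting error only), and between 1.26 and 2.15 with 1 library left out. Such a lead was present at 22.3% of the 14952 regions called in all 4 libraries in the windows of protein-coding genes, so 1 in 10 member regions is not above the background. The peaks also differed in position. The peaks of both EpCAM-positive libraries covered the start, and those of the EpCAM-negative libraries ended 124 and 86 bp before it. The peaks of the whole lists covered 12.9 and 12.9 Mb in EpCAM-positive, against 10.8 and 10.6 Mb in EpCAM-negative libraries. That total also grows with the number of peaks, and its part in the position of the peak ends was not tested. A second peak, 63 bases further upstream (35118173 to 35118567), was called in EpCAM-positive replicate 1 alone with 19 summit fragments.

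Cebpb (chromosome 2, 167688915 to 167690432), which encodes C/EBPβ, had 6 regions, as many as Itgam and more than any of the others. The strongest lay inside the gene at 167689772 to 167690156, 1048 bp after the start, with 62 and 72 summit fragments in EpCAM-positive libraries, against 54 and 46 in EpCAM-negative libraries. After scaling these were 56.5 and 63.7 (EpCAM-positive) against 59.2 and 51.4 (EpCAM-negative), a ratio of 1.09 (0.833 to 1.42), and the fractions overlapped. The region 8046 bp upstream (167679866 to 167680869) had 46 and 53 (EpCAM-positive) against 39 and 44 (EpCAM-negative) summit fragments, with a scaled ratio of 0.968 (0.715 to 1.31). The region over the start (167688466 to 167688955) was weaker, with 22 summit fragments in EpCAM-positive replicate 1, no call in EpCAM-positive replicate 2, and 23 and 19 in EpCAM-negative libraries. Its local background was high, between 3.86 and 5.42 fragments. The peak of EpCAM-negative replicate 1 covered the start of Cebpb. Those of EpCAM-positive replicate 1 and EpCAM-negative replicate 2 ended 28 and 35 bp before it. The remaining 3 regions of Cebpb were called in 1 to 3 libraries. One of them had 8 summit fragments in EpCAM-positive replicate 2 alone (167672408 to 167672621), and one had 11 in EpCAM-positive replicate 2 and 10 in EpCAM-negative replicate 1 (167697981 to 167698308). The one 18414 bp beyond the gene (167708846 to 167709154) had 7 and 22 summit fragments in EpCAM-positive libraries, 9 in EpCAM-negative replicate 1 and no call in EpCAM-negative replicate 2, so the EpCAM-positive pair gave both the lowest and the highest value.

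Irf8 (chromosome 8, 120736358 to 120756694) had 3 regions. The region over its start (120736028 to 120736655) had 14 and 13 summit fragments in EpCAM-positive libraries, no call in EpCAM-negative replicate 1, and 13 in EpCAM-negative replicate 2. In each of the 3 libraries the peak covered the start. A region inside the gene, 15732 bp after the start (120751778 to 120752547), was called in all 4 libraries with 18 and 17 summit fragments in EpCAM-positive libraries, against 25 and 14 in EpCAM-negative libraries. EpCAM-negative replicate 1, which had no peak at the start, had the highest value here. The scaled values were 16.4 and 15.0 (EpCAM-positive) against 27.4 and 15.6 (EpCAM-negative), a ratio of 0.728 (0.448 to 1.18). With the lowest background as the scale both EpCAM-positive values lay below both EpCAM-negative ones. The remaining region, 10793 bp upstream, was called in 3 libraries with 11 summit fragments in EpCAM-positive replicate 2 and 10 and 12 in EpCAM-negative libraries.

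Zbtb46 (chromosome 2, 181371009 to 181493262) had 5 regions, and 3 of them lay over or within 19 bp of the starts of other genes. The strongest, at 181496510 to 181497903 over the start of Tpd52l2, had 85 and 69 summit fragments in EpCAM-positive libraries, against 59 and 51 in EpCAM-negative libraries, or 77.5 and 61.0 (EpCAM-positive) against 64.7 and 57.0 (EpCAM-negative) after scaling. The region over the start of Arfrp1, which encodes a small GTPase, had 20 and 23 (EpCAM-positive) against 17 and 15 (EpCAM-negative) summit fragments. Another, 19 bp from the listed start of Lime1, an adaptor of T cell receptor signalling, had 21 and 17 in the EpCAM-positive libraries, 10 in EpCAM-negative replicate 1 and no call in EpCAM-negative replicate 2. Inside Zbtb46 and away from other starts, the region at 181392524 to 181393029 had 12 and 18 (EpCAM-positive) against 9 and 13 (EpCAM-negative) summit fragments and was called in all 4 libraries. The region at 181483734 to 181484139 was called in EpCAM-positive replicate 1 with 7 and in EpCAM-negative replicate 2 with 6. The listed start of Zbtb46, on the minus strand, had no peak and lies inside the gene. The nearest region to it was the one at 181392524 to 181393029, with its summit 31489 bp further into the gene. On this strand the upper end of the span, 181493262, is the outermost 5′ end. The region over the start of Tpd52l2 lay 3248 bp beyond that end, and the region at 181483734 to 181484139 had its summit 9377 bp inside it.

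Neither enzyme gene had a region called in more than 2 libraries. Lyz2 (chromosome 10, 117277541 to 117282272) had 1 region, 2428 bp beyond the gene, with a summit of 12 fragments in EpCAM-positive replicate 2 and 8 in EpCAM-negative replicate 2, and no call in the other libraries. Mpo (chromosome 11, 87793784 to 87804412) had a peak in EpCAM-positive replicate 2 with 9 summit fragments, inside the neighbouring gene Tspoap1, and a peak in EpCAM-negative replicate 2 with 7, inside Lpo, the lactoperoxidase gene. Neither gene had a peak in replicate 1 of either fraction. A peak list holds only peaks above the caller's threshold, so weaker accessibility there was not detectable.

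Across the 10 regions called in all 4 libraries, the scaled ratio of EpCAM-positive to EpCAM-negative values ran from 0.728 (inside Irf8) to 1.60 (Cebpa start) with a median of 1.10, beside 1.01 over all such regions in gene windows. Of these 10, 1 was higher and 0 were lower in both EpCAM-positive libraries, and 9 overlapped, while 22.3% were higher and 20.6% lower over all regions. The split depends on the scaling. Unscaled pileups gave 7 higher and 0 lower among members (49.4% and 5.20% over all regions called in all 4 libraries), and scaling by the lowest background gave 1 higher and 2 lower (13.3% and 32.1%). With any 1 library left out, 3 to 5 of the 11 to 12 member regions called in all the others were higher and 2 to 3 lower, beside 34.9% to 37.0% higher and 34.7% to 36.5% lower over all such regions, since a fraction of 1 library overlaps less often. The Cebpa start was higher under each of the 3 scalings. The 6 regions called in 3 libraries were missing 2 times in EpCAM-positive replicate 1, once in EpCAM-positive replicate 2, once in EpCAM-negative replicate 1 and 2 times in EpCAM-negative replicate 2, so neither fraction lacked more of them.

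**Figure D4:**
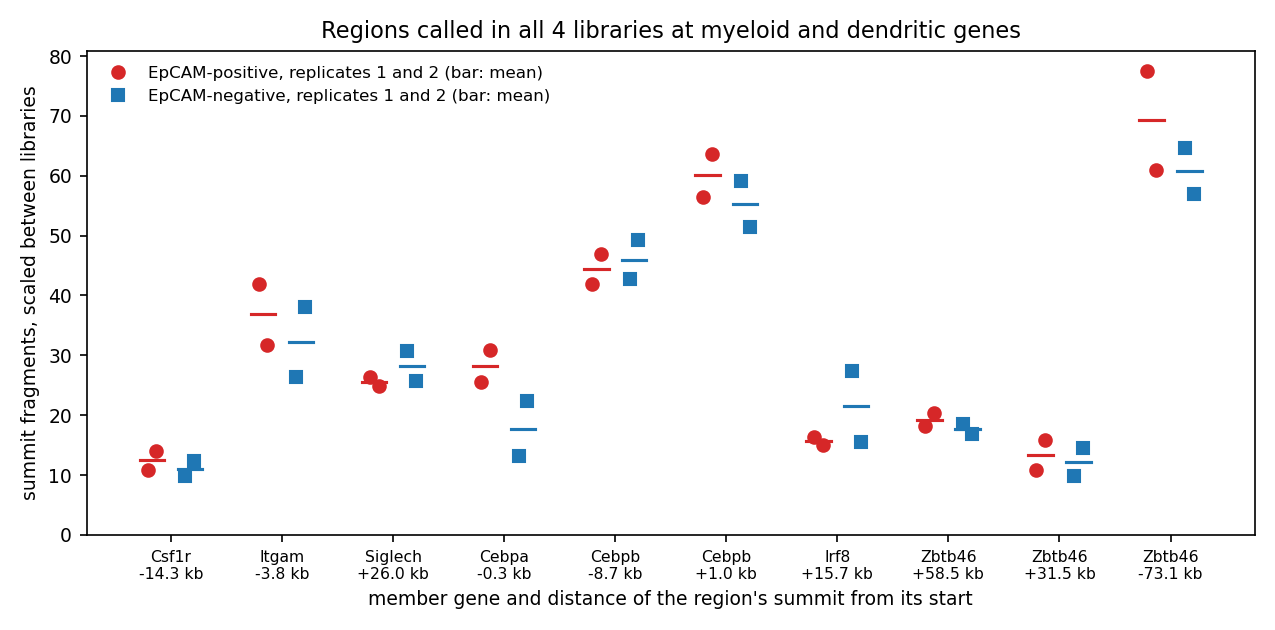
Scaled summit fragments (y axis) of the 10 regions called in all 4 libraries, with 2 EpCAM-positive libraries on the left and 2 EpCAM-negative libraries on the right of each pair and a bar at the mean. The x axis gives the gene and the distance of the summit from its start, in kb (for Csf1r, from its lower-coordinate end, and for Zbtb46, from its listed start within the gene). At the Cebpa start both EpCAM-positive values (25.5 and 30.9) lie above both EpCAM-negative values (13.2 and 22.3); the fractions overlap at the other 9.

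Further from the genes, between 20 and 50 kb, the nearest region outside the window lay 26834 bp from Zbtb46 (181520096 to 181520865). It had 70 and 67 summit fragments in EpCAM-positive libraries, against 64 and 58 in EpCAM-negative libraries. After scaling, the EpCAM-positive values lay below the EpCAM-negative ones, at 63.8 and 59.2 (EpCAM-positive) against 70.2 and 64.8 (EpCAM-negative). Irf8 had stronger regions between 20 and 50 kb than in its own window. The one 33912 bp upstream (120701795 to 120702446) had 77 and 72 (EpCAM-positive) against 52 and 57 (EpCAM-negative) summit fragments. Its scaled ratio was 1.11 (0.86 to 1.43), and the fractions overlapped after scaling. The one 39119 bp upstream (120696276 to 120697239) had 39 and 48 (EpCAM-positive) against 23 and 22 (EpCAM-negative), a scaled ratio of 1.57 (1.08 to 2.30). Scaled values of the more distant one were 35.5 and 42.4 in EpCAM-positive libraries, against 25.2 and 24.6 in EpCAM-negative libraries, without overlap. Such a lead was present at 21.7% of all regions called in all 4 libraries, and the reverse at 21.7%. It was also present 31861 bp from Cebpb (ratio 1.05) and 48540 bp from Mpo (1.48), with the reverse near Zbtb46. At the remaining regions called in all 4 libraries at this distance, the fractions overlapped. Near Mpo, an EpCAM-positive-only region 35221 bp upstream (87758170 to 87758563) had 43 and 44 summit fragments over a high local background of 16.2 and 15.6, and 543 bases separated it from a region called in all 4 libraries. Near Cebpa, an EpCAM-negative-only one 38349 bp upstream (35080716 to 35080944) had 7 and 8. The strongest region near Mpo, 43988 bp upstream, had 147 and 122 summit fragments in EpCAM-positive libraries, against 119 and 141 in EpCAM-negative libraries.

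A list of 51 further myeloid and dendritic genes was read in the same way. Of these, 11 (21.6%) had a region called in all 4 libraries at the start, among them the transcription factor genes Gfi1, Irf7, Klf4, Id2, Tcf4 and Relb and the integrin gene Itgb2. No peak lay in the windows of 8 genes (15.7%), which are Irf5, Adgre1, Clec10a, Cd209a, Tlr7, Ctsg, S100a8 and Cybb, against 25.7% of all protein-coding genes. Among the 147 regions of their windows, all 4 libraries called 69 (46.9%), against 48.9% in the windows of all protein-coding genes. Of the 147, 9 (6.12%) were EpCAM-positive-only and 2 (1.36%) EpCAM-negative-only, where the background is 4.47% and 1.53%. EpCAM-positive-only regions lay inside Cebpd, which encodes C/EBPδ (18 and 15 summit fragments), inside Irf7 (26 and 19) and over its neighbour Sct (9 and 10). Another lay inside the dendritic cell lectin gene Clec9a (7 and 10) and also overlapped Clec12b. The others lay outside their genes. Their summits had 9 and 15 fragments near Fcgr1, 9 and 9 near Tyrobp, and 10 and 13 in the region that Elane and Prtn3 share. The region near Ngp (21 and 23) overlapped Ptpn23, and that near Cd74 (11 and 8) overlapped Tcof1. The region inside Irf7 lay 96 bases and that near Ngp 202 bases from an EpCAM-negative peak. Both EpCAM-negative-only regions lay inside Tcf4, a factor of plasmacytoid dendritic cells that lymphoid cells also express, with 8 and 9, and with 10 and 6 summit fragments. Among regions called in all 4 libraries, the highest lay inside Relb, an NF-κB subunit gene, with 149 and 162 summit fragments in EpCAM-positive libraries, against 137 and 128 in EpCAM-negative libraries. In the Spi1 window the region over the start of Slc39a13 had 124 and 132 in EpCAM-positive libraries, against 138 and 131 in EpCAM-negative libraries. Inside Csf2ra, a receptor gene for granulocyte-macrophage colony-stimulating factor, a region had 150 and 142 in EpCAM-positive libraries, against 104 and 110 in EpCAM-negative libraries. In the Mertk window the region over the start of Tmem87b had 161 and 131 in EpCAM-positive libraries, against 105 and 96 in EpCAM-negative libraries. In the Cd68 window the region over the start of Eif4a1 had 90 and 139 in EpCAM-positive libraries, against 93 and 123 in EpCAM-negative libraries. After scaling, both EpCAM-positive libraries were above both EpCAM-negative ones at Csf2ra (ratio 1.11) and Mertk (1.18) and below them at Spi1 (0.772), and the fractions overlapped at Relb and Cd68. Over all regions called in all 4 libraries in gene windows, 22.3% were higher and 20.6% lower in this way. These regions were taken for their high pileup, and the split over all 69 is not given here.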

How the data were processed

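Each library has its own deposited narrow peak list, so replicates can be compared peak by peak. Per the submitters' processing notes the tools were MACS3, Bowtie2, Picard, SAMtools, Trim Galore, Trimmomatic, FastQC, deepTools and bedtools, with the mouse build mm10. Versions, settings and any shift of reads for the transposase: not given in the sources used here. For every peak the authors' caller wrote a display score, the fold (a ratio to local background), and −log10 values of p and of q, with its position and summit.

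Pileup and background at each summit were solved from fold, with 1 added to both terms, and the Poisson −log10 p, within 0.01; this worked for 100% of peaks, and 1.55% to 3.92% of them per list had a second solution, of which the nearer was taken. The solving, merging and overlap steps were tested on simulated data. On chromosomes 1 to 19 and both sex chromosomes, peaks were merged at an overlap of at least 1 bp into 36224 regions (Python 3.11.15, pandas 2.3.3, SciPy 1.17.1). The strongest peak by −log10 q stands for a library. Gene spans, starts and strands came from RefSeq tables of GRCm38.p6; exons and introns were not annotated. All 10 members were matched, 9 of them with a listed start; 17491 of 21883 protein-coding genes have one. Intervals are exact (Clopper-Pearson, converted to a ratio) at 95%. Alternatives were other windows, merging, thresholds, scalings and leaving out each library. Genes named are the members and, of the other list, those with a region called in 1 fraction's pair alone and the 5 with the highest region called in all 4; examples of open and empty genes were added after their values were seen. Members, lists and motifs were chosen with earlier results of these data known.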

Additional observations from a re-analysis of the deposited data

How the results depend on the processing

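With same-numbered libraries compared, a replicate block added after seeing the data, 4 of the 10 shared regions were higher in EpCAM-positive cells in both numbers (Csf1r, Cebpa and 2 of Zbtb46) and 3 lower (Siglech, 1 of Cebpb, Irf8), beside 31.2% and 30.3% of all regions called in all 4 libraries. The labels do not say that a number marks a shared animal or day, and the deviations of same-numbered libraries correlated at 0.16 across regions, which are not independent. The count of 10 member regions called in all 4 libraries was 4 with a window of 0 kb and 20 with 50 kb. It was 10 with a gap of 100 bp, a −log10 q of at least 5 or lists of equal length, and 11 to 12 with 1 library left out. The EpCAM-positive-only count of 0 was 1 with a window of 50 kb and 1 with peaks merged across 100 bp. It was 4 and 2 without EpCAM-positive replicate 1 and 2, when that fraction needs 1 call. Without EpCAM-negative replicate 1 and 2 it was 2 and 1, when only 1 EpCAM-negative library must lack a call. The EpCAM-negative-only count of 1 was 0 with a window of 0 kb or 10 kb, 2 with 50 kb, 0 with a −log10 q of at least 5, and 2 to 3 with 1 library left out. The count of 1 gene open at its start (Cebpa) was 2 within 500 bp or 2000 bp of either gene end, which takes in the region near the far end of Cebpb, and 1 to 2 with 1 library left out. Regions higher in EpCAM-positive were 1 as scaled and with the lowest background, 7 unscaled and 3 to 5 with 1 library left out; regions lower were 0 as scaled and unscaled, 2 with the lowest background and 2 to 3 with 1 library left out. The cause of these moves was not tested beyond what each setting does by construction. Most member regions rest on under 30 summit fragments. Read totals were not used, and the lowest local background was lower in the EpCAM-negative libraries.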
